A study of Mus musculus with 9 samples.

Results

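The genes described here are the ligands and receptors of the tumour necrosis factor (TNF) superfamily in mouse hearts after myocardial infarction (MI). Members were taken by name. They are every gene of the count table whose symbol begins with Tnfsf or Tnfrsf and a digit, together with Tnf, Lta, Ltb, Ltbr, Fas, Fasl, Cd40, Cd40lg, Cd27, Cd70, Eda, Edar, Eda2r and Ngfr. This gave 45 of the 24964 genes in the table, 18 of them ligands and 27 receptors. RNA was measured by bulk RNA sequencing of the heart in 9 male C57BL/6JR mice, 8 weeks old at the start, with no genetic change named. In 6 of them a suture closed the left anterior descending coronary artery, and hearts were taken 7 d later from 3 mice and 28 d later from the other 3. The remaining 3 mice had a sham operation, with the same anaesthesia and opening of the chest but no ligation. The labels give the tissue only as heart, without saying which region of the wall was taken, and they give no harvest time for the sham group.

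TNF superfamily ligands are mostly trimeric proteins of the cell surface that can be cut off and released. Each binds a small set of receptors. Receptors with a death domain can recruit caspases or kinases, TRAF-binding receptors act mainly through TRAF adaptors on NF-kB and on kinase cascades, and decoy receptors bind ligand without passing on a signal. In the injured heart the family is best known for Tnf and its receptors, for the ligand Tnfsf12 (TWEAK) with its receptor Tnfrsf12a (Fn14), and for the osteoprotegerin axis of Tnfsf11, Tnfrsf11a and Tnfrsf11b.

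Libraries held 12351525 to 19238101 counts, and the 45 genes together took 3764 to 4022 counts per sham library, 14140 to 15151 per 7 d library and 6636 to 8303 per 28 d library. Levels are given in CPM, counts per 1000000 after TMM scaling, ± SD over n = 3 hearts. Differences are log2 fold changes (log2 FC) ± SE from edgeR's quasi-likelihood test over 14347 genes, and "rose", "fell", "higher" and "lower" refer to a Benjamini-Hochberg adjusted p below 0.05 in it. Replicate libraries differed little in sham hearts, with a biological coefficient of variation of 2.73%, and more at 7 d (17.0%) and 28 d (24.2%). The chi-square per degree of freedom between pairs of replicates was 1.64 to 1.76 in sham hearts. It was 17.9 to 27.9 at 7 d and 29.4 to 67.5 at 28 d, where counting error alone gives about 1. Whether the sham libraries vary as separate hearts would cannot be told from the counts. Results are therefore also given with the 3 sham libraries summed to 1. The heart label fits the cardiomyocyte markers, 6 genes that summed to 80480 to 84491 CPM in sham hearts, 9868 to 12977 CPM at 7 d and 23444 to 45115 CPM at 28 d. In 3 of the 6 MI libraries (7 d replicate 3, 28 d replicates 1 and 3) the adipocyte gene Adipoq exceeded 100 CPM, against 0.423 to 3.12 CPM in the other 6 libraries. Where values are given without these 3 libraries, the 28 d group is 1 heart (replicate 2), which the fit assumes to vary like the other groups, and the 7 d group is 2 hearts. In 28 d replicate 3 the 4 Schwann cell markers summed to 139 CPM, against 5.64 to 10.02 CPM in the other 8 libraries. In bulk tissue a lower share of cells of some type and less RNA per cell cannot be told apart.

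Of the 45 genes 36 had enough reads to be tested, 11 ligands and 25 receptors. The 9 others were the ligands Cd40lg, Cd70, Fasl, Lta, Tnfsf11, Tnfsf18 and Tnfsf4 and the receptors Tnfrsf13c and Tnfrsf17. Of the 36, 13 were under the level of the filter (0.641 CPM) in at least 1 sham library and were kept because of the MI hearts. They were the ligands Ltb, Tnfsf8, Tnfsf9, Tnfsf13, Tnfsf14 and Tnfsf15 and the receptors Cd27, Edar, Tnfrsf11b, Tnfrsf13b, Tnfrsf4, Tnfrsf8 and Tnfrsf9. For these a rise was built into being tested, so counts over the tested genes are a description. Beside them stand the 23 members at or above that level in every sham library. A further set of 23, with a mean of at least 2 CPM over all 9 libraries, holds Ltb and Tnfrsf11b, which were below the level in a sham library, in place of Tnf and Ngfr, and so still depends in part on the MI hearts.

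The genes lie in groups on the mouse genome, as RefSeq places them on GRCm38.p6. Of the 45, 23 lie in 9 clusters with neighbours no more than 1000000 bases apart. Ltb, Tnf and Lta are side by side on chromosome 17 (35194507 to 35205578), and Cd27, Ltbr and Tnfrsf1a on chromosome 6 (125232620 to 125362483). On chromosome 7 the cluster holds Tnfrsf26, Tnfrsf22 and Tnfrsf23 (143607685 to 143686436). Promoter sequence, the 250 bases before an annotated start, was at hand for 35 members. It is shown, with matches in capitals, for 3 of the genes that rose at 7 d and carry a searched motif. All 3 are among the members kept because of the MI hearts. Others that rose and carry a motif, such as Fas and Tnfsf13b, are not shown. The motifs are those of transcription factors that these receptors are known to switch on. The motifs searched, on both strands, were a short form of the NF-kB site, which is GGG and TTCC with any 3 bases between them, and the AP-1 site TGANTCA. No printed matches of the 2 motifs overlap. All sequences are RefSeq's, on GRCm38.p6, written 5′ to 3′ on the gene's strand.
Ltb, chr17:35194257-35194506, plus strand: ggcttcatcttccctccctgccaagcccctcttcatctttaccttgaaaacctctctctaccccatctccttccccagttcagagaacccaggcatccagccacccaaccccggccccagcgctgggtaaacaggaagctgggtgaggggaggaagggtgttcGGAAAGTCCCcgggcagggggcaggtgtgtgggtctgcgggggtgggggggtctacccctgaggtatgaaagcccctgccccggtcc
Tnfsf14, chr17:57194182-57194431, minus strand: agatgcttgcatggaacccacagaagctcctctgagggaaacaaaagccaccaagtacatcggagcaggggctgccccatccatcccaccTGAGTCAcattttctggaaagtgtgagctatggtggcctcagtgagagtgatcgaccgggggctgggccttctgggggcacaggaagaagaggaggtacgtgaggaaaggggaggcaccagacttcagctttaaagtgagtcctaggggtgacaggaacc
Tnfrsf9, chr4:150927749-150927998, plus strand: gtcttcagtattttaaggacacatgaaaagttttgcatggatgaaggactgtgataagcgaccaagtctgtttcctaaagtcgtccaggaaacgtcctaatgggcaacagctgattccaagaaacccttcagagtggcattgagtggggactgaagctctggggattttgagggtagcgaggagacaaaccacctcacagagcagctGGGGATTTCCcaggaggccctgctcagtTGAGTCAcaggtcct
In Ltb the capitals mark GGAAAGTCCC, 87 to 78 bases before the start, an NF-kB match read on the opposite strand. In Tnfsf14 they mark TGAGTCA at 160 to 154 bases before the start. In Tnfrsf9 they mark GGGGATTTCC at 43 to 34 bases and TGAGTCA at 15 to 9 bases before a start that lies inside the annotated span of the gene. Among the 39 promoters of the 35 members, 4 held the NF-kB motif (Eda2r, Ltb, Tnfrsf25, Tnfrsf9), or 10.3%, against 4.65% of all 21811 promoters. The AP-1 motif was in 6 (Fas, Tnfrsf8, Tnfrsf9, Tnfsf13, Tnfsf13b, Tnfsf14), or 15.4%, against 6.35% of all. These are matches of letters in a window, and no test was made of them.

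The first comparison asks how the family differed 7 d after the ligation. Most of its tested members were higher than in sham hearts, among them Tnf, Ltb, Tnfsf12 and both Tnf receptors, while the ligand Tnfsf10 and the receptor Tnfrsf19 were lower. The summed level of the 27 receptors went from 285 to 292 CPM in sham hearts to 646 to 669 CPM at 7 d, while that of the 18 ligands was 49.6 to 54.0 CPM in sham hearts and 53.7 to 61.7 CPM at 7 d. Of the 36 tested genes 28 rose, 2 fell (Tnfsf10 and Tnfrsf19) and 6 did not pass, where 39% of all tested genes rose and 35.4% fell (74.4% in either direction). Of the 23 at the filter level in every sham library 17 rose and 2 fell, as many as of the 23 with a mean of at least 2 CPM. The median log2 FC was 1.24 over the 36 and 0.95 over either set of 23, against 0.064 over all tested genes. By role, 8 of 11 tested ligands, 5 of 7 death-domain receptors, 12 of 14 TRAF-binding receptors and 2 of 3 decoy receptors rose, as did Tnfrsf26. These role counts are a description, since they include the 13 members kept because of the MI hearts, of which 11 rose.

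The second comparison, of hearts at 28 d with the same sham hearts, asks which of these differences were there later on. Both Tnf receptors, Tnfsf12, Tnfsf13b, Ltb and Tnfrsf11b were higher than in sham hearts, and Tnfsf10 was lower. Of the 36 tested genes 14 rose, 3 fell (Tnfrsf21, Tnfrsf22 and Tnfsf10) and 19 did not pass, where 29.5% of all tested genes rose and 25.6% fell (55.1% in either direction). By role, 4 of 11 tested ligands, 2 of 7 death-domain receptors, 6 of 14 TRAF-binding receptors and 2 of 3 decoy receptors rose. These role counts too include the 13 members kept because of the MI hearts, of which 5 rose. Of the 23 at the filter level in every sham library 9 rose and 3 fell, and of the 23 with a mean of at least 2 CPM 11 rose and 3 fell. The median log2 FC was 0.57 over the 36, 0.36 over the former and 0.56 over the latter, against 0.054 over all tested genes. With library size alone as the scaling, which moved the median of all genes to 0.30, 22 members were higher. With the 3 sham libraries summed to 1, 8 were higher and 1 lower, and the calls lost were those of Tnfrsf1a, Tnfrsf11a, Tnfrsf12a, Tnfrsf23, Tnfrsf25, Eda2r, Tnfrsf22 and Tnfsf10.

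The third comparison, between the MI groups, asks what changed from 7 d to 28 d, and it uses the hearts of both comparisons above. Of the 36 tested genes 21 were lower at 28 d, 1 was higher (Tnfrsf12a) and 14 did not pass, where 26.1% of all tested genes were lower and 29.1% higher (55.2% in either direction). In either set of 23, 13 were lower and 1 higher. The median log2 FC was -0.67 over the 36 and -0.65 over either set, against 0.033 over all tested genes. The largest falls among members over 1 CPM at both times were those of Tnfrsf26, Tnfrsf1b and Tnfrsf11a. The plot of fold changes by role shows the 3 comparisons side by side.

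**Figure D1:**
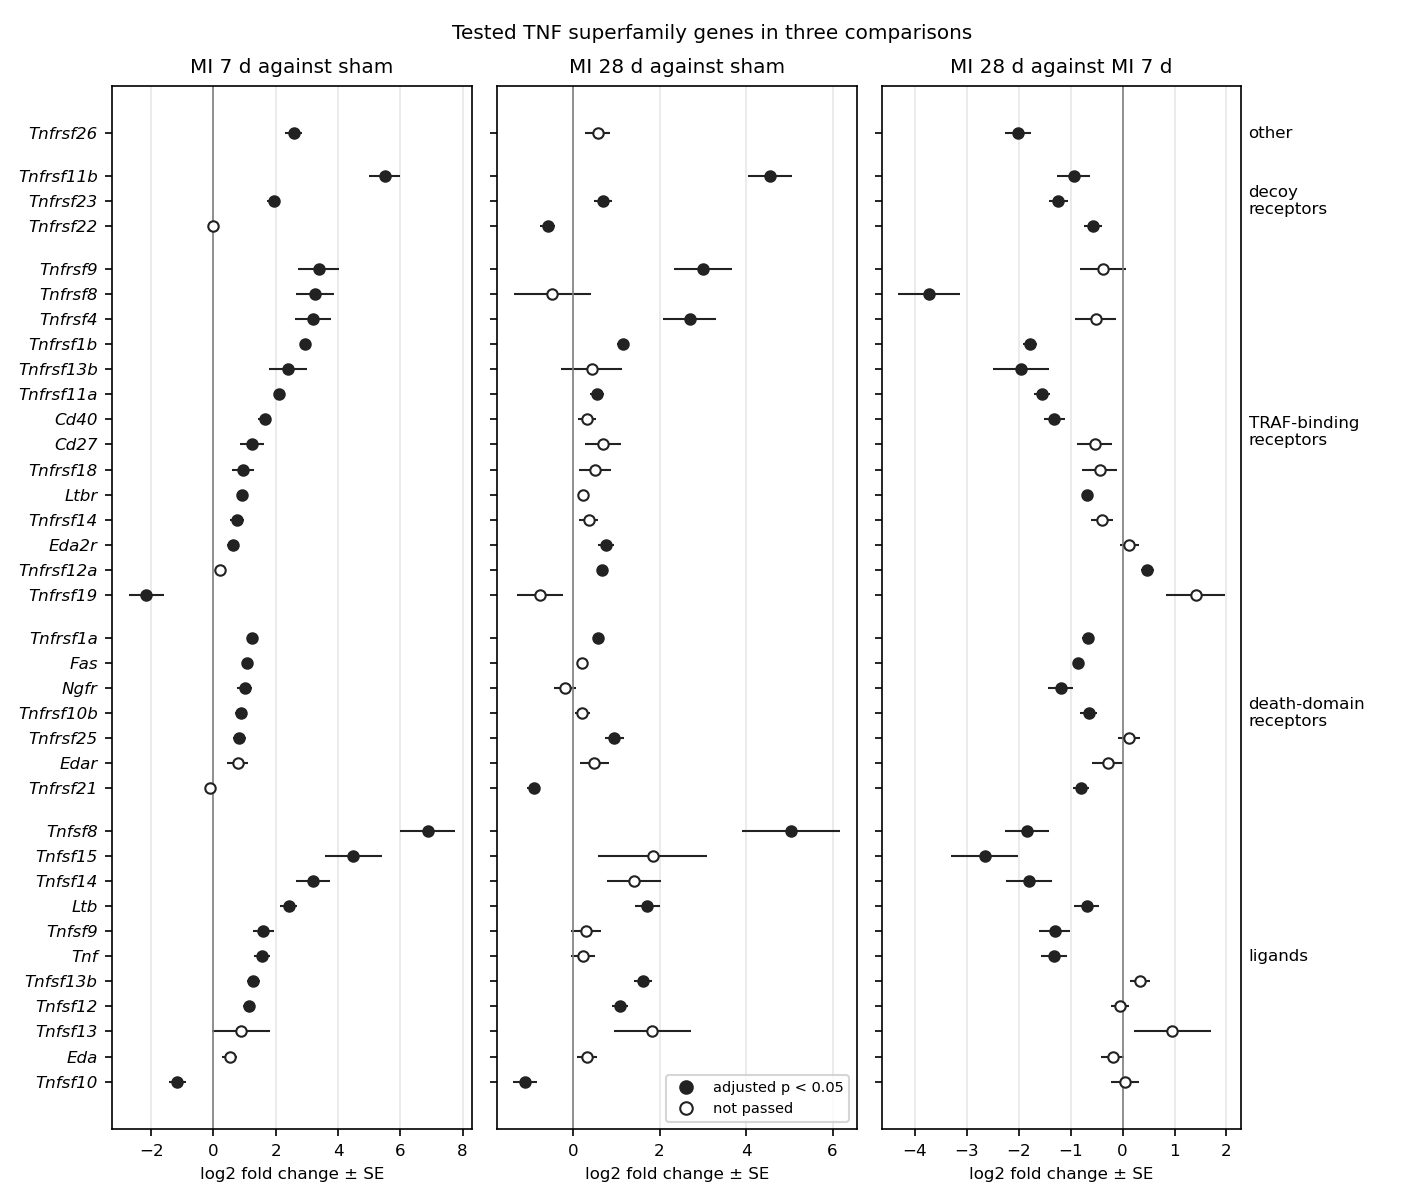
Log2 fold change ± SE (x axis) of the 36 tested TNF superfamily genes (y axis, grouped by role) in the 3 comparisons, with filled points for genes with an edgeR adjusted p below 0.05. Most points lie right of 0 at 7 d against sham and left of 0 at 28 d against 7 d, and the values of Tnfsf8 rest on 0 counts in all sham hearts.

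Among the ligands, Tnf, the founding cytokine of the family, was low throughout. It stood at 0.785, 0.828 and 0.761 CPM in the sham hearts, 2.55, 2.43 and 2.02 CPM at 7 d and 0.796, 1.18 and 0.811 CPM at 28 d. All 3 hearts at 7 d lay above all sham hearts, and the 28 d hearts overlapped the sham range. Tnf rose 2.93-fold at 7 d (log2 FC 1.55 ± 0.26, edgeR adjusted p = 0.000429) and was lower again at 28 d than at 7 d (log2 FC -1.32 ± 0.25, edgeR adjusted p = 0.0015). At 28 d it did not differ detectably from sham, at a fold of 1.17 with a 95% interval of 0.797 to 1.73.

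Ltb, the membrane ligand that forms lymphotoxin heterotrimers and signals through Ltbr, stood at 0.785, 0.552 and 0.761 CPM in the sham hearts, 3.70, 3.32 and 4.28 CPM at 7 d and 3.05, 2.05 and 1.91 CPM at 28 d. No MI heart fell within the sham range at either time. Ltb was kept because of the MI hearts, so a rise was built into its being tested. The rise was 5.33-fold at 7 d (log2 FC 2.41 ± 0.28, edgeR adjusted p = 3.05e-05) and 3.30-fold at 28 d (log2 FC 1.72 ± 0.29, edgeR adjusted p = 0.000913). Ltb was 1.61-fold lower at 28 d than at 7 d (log2 FC -0.69 ± 0.24, edgeR adjusted p = 0.0316), a call lost without 7 d replicates 1 or 3 or 28 d replicates 2 or 3 (edgeR adjusted p = 0.0635, 0.101, 0.0969 and 0.0849). That call for Ltb was also lost with DESeq2 (adjusted p 0.0521), with voom (0.0559), in a fit of the compared groups alone (0.052), with sham summed to 1 (0.0614) and without the Adipoq-rich libraries (0.07, 1 heart at 28 d). Its receptor Ltbr was far more abundant, at 47.2 ± 2.75 CPM in sham hearts, 88.8 ± 8.95 CPM at 7 d and 55.1 ± 1.06 CPM at 28 d, and rose 1.88-fold at 7 d. At 28 d Ltbr did not pass against sham (log2 FC 0.22 ± 0.086, edgeR adjusted p = 0.0503), but did with library size alone, with the stricter filter, in a fit of the compared groups alone and without 7 d replicates 1 or 2 (edgeR adjusted p = 0.00224, 0.0429, 0.025, 0.0333 and 0.0261).

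Tnfsf9, the ligand of the costimulatory receptor Tnfrsf9 (4-1BB), was seen at 0.785, 0.460 and 0.761 CPM in the sham hearts, 2.02, 2.13 and 2.02 CPM at 7 d and 1.13, 0.558 and 0.811 CPM at 28 d. The 7 d hearts were close together and apart from the others. Tnfsf9 was kept because of the MI hearts, so a rise was built into its being tested. It rose 3.04-fold (log2 FC 1.60 ± 0.32, edgeR adjusted p = 0.00129) and was 2.47-fold lower at 28 d than at 7 d (log2 FC -1.30 ± 0.30, edgeR adjusted p = 0.00483). At 28 d against sham its log2 FC of 0.30 ± 0.35 did not pass, and it was -0.28 without the 3 Adipoq-rich libraries, with 1 heart left at 28 d. Part of its exons (14.9%) overlaps a gene on the other strand, from which its reads cannot be told apart where counting ignores strand.

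Of the 4 ligands that were higher than sham at 28 d, Tnfsf12 and Tnfsf13b were not lower there than at 7 d. Tnfsf12, a cytokine of tissue injury that binds Tnfrsf12a, stood at 4.71, 5.89 and 5.15 CPM in the sham hearts, 10.8, 11.4 and 12.3 CPM at 7 d and 8.16, 12.5 and 12.8 CPM at 28 d. It rose 2.20-fold at 7 d (log2 FC 1.13 ± 0.19, edgeR adjusted p = 0.000339) and 2.13-fold at 28 d (log2 FC 1.09 ± 0.19, edgeR adjusted p = 0.00106). Tnfsf13b, or BAFF, a survival factor of B cells, stood at 2.01, 2.67 and 1.77 CPM in the sham hearts, 5.10, 5.0 and 5.53 CPM at 7 d and 5.84, 5.83 and 8.11 CPM at 28 d. It rose 2.43-fold at 7 d (log2 FC 1.28 ± 0.21, edgeR adjusted p = 0.000371) and 3.07-fold at 28 d (log2 FC 1.62 ± 0.21, edgeR adjusted p = 0.000278). In both genes every MI heart lay above every sham heart, and neither passed between 28 d and 7 d (folds of 0.970, 95% interval 0.764 to 1.23, and 1.27, 95% interval 0.975 to 1.65). For Tnfsf12 the sign of that last difference changed with the libraries used, at a log2 FC of -0.044 ± 0.18 with all libraries and 0.17 without the Adipoq-rich ones, which compares 1 heart at 28 d with 2 at 7 d. Of the stretches of 50 bases in Tnfsf12 transcripts, 46.8% also occur in a readthrough transcript with its neighbour Tnfsf13, so its reads may be split.

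Tnfsf10, or TRAIL, a death ligand, was the most abundant ligand of sham hearts and the single ligand that fell. It stood at 33.7, 38.2 and 33.5 CPM in the sham hearts, 12.9, 14.4 and 19.8 CPM at 7 d and 18.2, 21.4 and 9.33 CPM at 28 d. Every MI heart lay below every sham heart, and the lowest was 28 d replicate 3. The fall was 2.23-fold at 7 d (log2 FC -1.16 ± 0.27, edgeR adjusted p = 0.00299) and 2.15-fold at 28 d (log2 FC -1.11 ± 0.27, edgeR adjusted p = 0.0067), the latter not passing with the sham libraries summed to 1 (adjusted p 0.0784 by edgeR). From 7 d to 28 d it did not pass, at a log2 FC of 0.052 ± 0.27. Without the Adipoq-rich libraries the 28 d group is the 1 heart with the highest Tnfsf10 of the 3 (21.4 CPM), and the values were log2 FC 0.64 and edgeR adjusted p = 0.00341. The 5 endothelial markers summed to 1670.4 to 1729.7 CPM in sham hearts, 667 to 757 CPM at 7 d and 447 to 789 CPM at 28 d, and 28 d replicate 3 was the lowest of all libraries. That heart was also the lowest of all libraries for mural markers (506 CPM) and dendritic cell markers (15.8 CPM). For cardiomyocyte markers it was the lowest of the 28 d hearts (23444 CPM), but the 7 d hearts were lower still. The part of any of these lists in the result was not tested.

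Of the death-domain receptors, Tnfrsf1a, the broadly expressed receptor of Tnf, was the most abundant. Its levels were 68.1, 70.9 and 67.6 CPM in the sham hearts, 165, 148 and 178 CPM at 7 d and 88.6, 102 and 119 CPM at 28 d. The 3 groups did not overlap. It rose 2.37-fold at 7 d (log2 FC 1.25 ± 0.11, edgeR adjusted p = 5.86e-06) and less at 28 d (log2 FC 0.59 ± 0.11, edgeR adjusted p = 0.00202), and was 1.58-fold lower at 28 d than at 7 d (log2 FC -0.66 ± 0.11, edgeR adjusted p = 0.000819). With the sham libraries summed to 1 the difference of Tnfrsf1a at 28 d did not pass (log2 FC 0.55, edgeR adjusted p = 0.0783).

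Fas, the receptor of Fasl that triggers apoptosis, stood at 13.3, 11.8 and 12.3 CPM in the sham hearts, 26.2, 26.2 and 26.7 CPM at 7 d and 15, 13.2 and 15.2 CPM at 28 d. Its 7 d values were within 1 CPM of each other and above all others. It rose 2.11-fold (log2 FC 1.08 ± 0.094, edgeR adjusted p = 4.25e-06) and was 1.82-fold lower at 28 d than at 7 d (log2 FC -0.86 ± 0.092, edgeR adjusted p = 5.61e-05). At 28 d against sham it did not pass (log2 FC 0.21 ± 0.095, edgeR adjusted p = 0.0817), but did without 28 d replicate 2 (edgeR adjusted p = 0.0493). Fasl was counted 0, 0 and 1 times in the sham libraries, 17, 6 and 11 times at 7 d and 10, 8 and 2 times at 28 d, a group ratio of 18.8-fold (95% counting interval 3.16 to 765) at 7 d.

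Ngfr, the low-affinity neurotrophin receptor, stood at 1.40, 1.47 and 1.10 CPM in the sham hearts, 3.13, 2.13 and 2.69 CPM at 7 d and 1.13, 1.18 and 1.16 CPM at 28 d. The 7 d hearts lay above all others, and the 28 d hearts were close to each other and at the low end of sham. It rose 2.00-fold at 7 d (log2 FC 1.00 ± 0.24, edgeR adjusted p = 0.00366) and was 2.29-fold lower at 28 d than at 7 d (log2 FC -1.19 ± 0.23, edgeR adjusted p = 0.00195). The rise did not pass with the sham libraries summed to 1 (edgeR adjusted p = 0.0511). Of the other members of this class, Tnfrsf10b, the receptor of Tnfsf10, rose 1.83-fold at 7 d and Tnfrsf25, the receptor of Tnfsf15, 1.78-fold at 7 d and 1.94-fold at 28 d. Tnfrsf21, or DR6, did not pass at 7 d (fold 0.928, 95% interval 0.758 to 1.13) and was 1.87-fold lower than sham at 28 d (log2 FC -0.91 ± 0.15, edgeR adjusted p = 0.000962). Edar, a receptor of skin and tooth development, did not pass in any comparison with all libraries (edgeR adjusted p = 0.0537 at 7 d). Edar was kept because of the MI hearts, so a rise was built into its being tested. At 7 d Edar passed with library size alone, without sham replicate 1 and without 7 d replicate 1 (edgeR adjusted p = 0.012, 0.0214 and 0.0474), and with limma voom (adjusted p 0.046). With the sham libraries summed to 1 the 7 d calls of Tnfrsf25, Eda2r, Tnfrsf14, Cd27 and Tnfrsf18 were lost as well.

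Tnfrsf1b, the Tnf receptor of leukocytes and endothelium, rose the most at 7 d of the members with at least 10 CPM in sham hearts. It stood at 19.8, 23.8 and 22.2 CPM in the sham hearts, 155, 179 and 172 CPM at 7 d and 40.4, 46.3 and 60.3 CPM at 28 d. The 3 groups did not overlap, and the 7 d hearts were at several times the level of any other. It rose 7.68-fold at 7 d (log2 FC 2.94 ± 0.15, edgeR adjusted p = 2.34e-07) and 2.23-fold at 28 d (log2 FC 1.16 ± 0.15, edgeR adjusted p = 0.000218), and was 3.44-fold lower at 28 d than at 7 d (log2 FC -1.78 ± 0.14, edgeR adjusted p = 1.13e-05). The 8 macrophage markers moved with it and summed to 507 to 576 CPM in sham hearts, 4473 to 5484 CPM at 7 d and 921 to 1453 CPM at 28 d. All 8 were higher than sham at both times, where 39% of all tested genes were at 7 d and 29.5% at 28 d. The order was not particular to macrophages. The sums of fibroblast, NK cell and osteoclast markers were likewise lowest in sham hearts and highest at 7 d, without overlap of the groups. The part of any of these lists in the result was not tested.

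Cd40, the costimulatory receptor of B cells and myeloid cells, stood at 3.75, 3.31 and 2.54 CPM in the sham hearts, 9.81, 9.70 and 10.4 CPM at 7 d and 3.05, 4.22 and 4.75 CPM at 28 d. It rose 3.11-fold at 7 d (log2 FC 1.64 ± 0.20, edgeR adjusted p = 4.91e-05) and was 2.48-fold lower at 28 d than at 7 d (log2 FC -1.31 ± 0.19, edgeR adjusted p = 0.000378), where its values overlapped those of sham. Its ligand Cd40lg was counted 0, 0 and 0 times in sham libraries, 2, 6 and 3 times at 7 d and 1, 3 and 3 times at 28 d, at least 2.03-fold higher at 7 d against a floor of 3 counts over the sham group. Tnfrsf11a, or RANK, which drives osteoclast formation, stood at 3.58, 2.76 and 3.72 CPM in the sham hearts, 14.2, 13.4 and 15.9 CPM at 7 d and 4.45, 5.02 and 5.39 CPM at 28 d. Every MI heart lay above every sham heart, with the 28 d hearts much closer to sham. It rose 4.31-fold at 7 d (log2 FC 2.11 ± 0.16, edgeR adjusted p = 1.73e-06) and 1.48-fold at 28 d (log2 FC 0.56 ± 0.16, edgeR adjusted p = 0.0151), and was 2.92-fold lower at 28 d than at 7 d (log2 FC -1.55 ± 0.15, edgeR adjusted p = 3.44e-05). The call for Tnfrsf11a at 28 d against sham was lost without sham replicate 2 (log2 FC 0.43, edgeR adjusted p = 0.064) and without the Adipoq-rich libraries, with 1 heart left at 28 d (edgeR adjusted p = 0.0558). Markers of osteoclasts, 6 genes, summed to 6.85 to 9.34 CPM in sham hearts, 128 to 158 CPM at 7 d and 38.3 to 55.0 CPM at 28 d. Of the 6, only 2 had enough reads to be tested, and Calcr, Ocstamp and Dcstamp were at 0 in all sham hearts. The part of the list in the result was not tested.

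Tnfrsf19, or TROY, was the receptor that fell at 7 d. It stood at 4.01, 5.98 and 5.92 CPM in the sham hearts, 0.722, 1.09 and 1.73 CPM at 7 d and 2.72, 0.931 and 5.74 CPM at 28 d. Every 7 d heart lay below every sham heart, and the 28 d hearts were spread from the 7 d range to the sham range. The fall at 7 d was 4.46-fold (log2 FC -2.16 ± 0.57, edgeR adjusted p = 0.00621). Neither comparison at 28 d passed (log2 FC -0.75 ± 0.53, edgeR adjusted p = 0.254 against sham, and log2 FC 1.41 ± 0.57, edgeR adjusted p = 0.0583 against 7 d). Against sham, Tnfrsf19 was lower without 28 d replicate 3 (log2 FC -1.54, edgeR adjusted p = 0.0196). Without the Adipoq-rich libraries the 28 d group is the 1 heart with the lowest Tnfrsf19 of the 3 (0.931 CPM), and the values were log2 FC -2.51, edgeR adjusted p = 0.00064. Against 7 d, Tnfrsf19 was higher without 28 d replicate 2 (log2 FC 1.84, edgeR adjusted p = 0.00627) or without 7 d replicate 3 (log2 FC 1.79, edgeR adjusted p = 0.0485). The 5 adipocyte markers summed to 1027, 4.40 and 812 CPM in 28 d replicates 1 to 3, and the lowest Tnfrsf19 of that group was in the heart with the lowest sum. The other groups did not show this order. Sham hearts had adipocyte sums of 5.23 to 9.20 CPM with Tnfrsf19 at 4.01 to 5.98 CPM. In 7 d replicate 3 the sum was 1434 CPM with Tnfrsf19 at 1.73 CPM. The highest Tnfrsf19 of the 28 d hearts was in replicate 3, the heart with Schwann cell markers at 139 CPM. The part of either list in the result was not tested.

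Tnfrsf12a, the receptor of Tnfsf12 that is induced in injured tissue, was the single member higher at 28 d than at 7 d. It stood at 69.4, 66.8 and 67.9 CPM in the sham hearts, 94.8, 67.5 and 72.2 CPM at 7 d and 118, 110.2 and 97.9 CPM at 28 d. At 7 d its values overlapped sham and the difference did not pass (fold 1.15, 95% interval 0.969 to 1.36), but did for Tnfrsf12a with library size alone (edgeR adjusted p = 0.00155). At 28 d it was 1.60-fold higher than in sham hearts (log2 FC 0.68 ± 0.13, edgeR adjusted p = 0.00164) and 1.39-fold higher than at 7 d (log2 FC 0.48 ± 0.12, edgeR adjusted p = 0.00924), with no overlap in either comparison. Eda2r, a receptor of ectodysplasin, rose at both times, 1.54-fold at 7 d and 1.69-fold at 28 d. Its ligand Eda did not pass in any comparison with all libraries, with folds of 1.43 at 7 d (95% interval 1.05 to 1.94) and 1.25 at 28 d (95% interval 0.919 to 1.71). At 7 d Eda passed with library size alone, in a fit of the compared groups alone, without sham replicate 3 and without 28 d replicate 3 (edgeR adjusted p = 0.00559, 0.0315, 0.0193 and 0.0301), and with limma voom (adjusted p 0.0301). Tnfrsf14, which binds Tnfsf14 and is found on lymphocytes and other cells, rose 1.69-fold at 7 d and did not pass at 28 d against sham (edgeR adjusted p = 0.189). Between 28 d and 7 d Tnfrsf14 passed only without 28 d replicate 3 (edgeR adjusted p = 0.0476).

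The decoy receptors included the member with the largest fold, at both times, among those counted in every library. Tnfrsf11b, or osteoprotegerin, the soluble decoy for Tnfsf11, stood at 0.349, 0.368 and 0.0845 CPM in the sham hearts, 10.3, 15.1 and 11.5 CPM at 7 d and 4.38, 4.78 and 9.91 CPM at 28 d. The sham libraries held only 4, 4 and 1 counts of it, the 7 d libraries 214, 304 and 238 and the 28 d libraries 66, 77 and 171. Tnfrsf11b was kept because of the MI hearts, so a rise was built into its being tested. It rose 45.2-fold at 7 d (95% interval 23.2 to 88.1, log2 FC 5.50 ± 0.49, edgeR adjusted p = 5.09e-06) and 23.5-fold at 28 d (log2 FC 4.55 ± 0.50, edgeR adjusted p = 0.000121). Tnfrsf11b was 1.92-fold lower at 28 d than at 7 d (log2 FC -0.94 ± 0.32, edgeR adjusted p = 0.0323), a call lost without 7 d replicates 2 or 3 or 28 d replicates 1 or 2 (edgeR adjusted p = 0.114, 0.0523, 0.0924 and 0.0978) and with sham summed to 1 (edgeR adjusted p = 0.0521). Its 28 d values ran from 4.38 to 9.91 CPM, with replicate 3 the highest. The 6 fibroblast markers summed to 2103 to 2161 CPM in sham hearts, 34835 to 45760.5 CPM at 7 d and 5967 to 11869 CPM at 28 d, and replicate 3 was the highest of the 28 d hearts there too. It was also the highest of the 28 d hearts for macrophage, lymphatic, mesothelial and Schwann cell markers. At 7 d the highest fibroblast sum was in replicate 1, which had the lowest Tnfrsf11b of that group (10.3 CPM). The part of these markers in the result was not tested. The ligand Tnfsf11, or RANKL, was counted 1, 0 and 0 times in sham libraries, 38, 6 and 15 times at 7 d and 5, 3 and 7 times at 28 d, a group ratio of 32.6-fold (95% counting interval 5.64 to 1311) at 7 d.

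On chromosome 7, neighbouring receptor genes changed by different amounts. Tnfrsf23, a mouse decoy for Tnfsf10, stood at 5.23, 4.78 and 4.82 CPM in the sham hearts, 21.9, 20.3 and 14.3 CPM at 7 d and 7.10, 9.80 and 7.13 CPM at 28 d. It rose 3.81-fold at 7 d (log2 FC 1.93 ± 0.20, edgeR adjusted p = 1.23e-05) and 1.62-fold at 28 d (log2 FC 0.69 ± 0.20, edgeR adjusted p = 0.0148), with no overlap with sham, and was 2.35-fold lower at 28 d than at 7 d. The 28 d call of Tnfrsf23 was lost without 28 d replicate 2 (log2 FC 0.52, edgeR adjusted p = 0.0549) and with the sham libraries summed to 1 (edgeR adjusted p = 0.147). Tnfrsf26, a receptor of the same cluster, stood at 1.66, 1.20 and 0.845 CPM in the sham hearts, 7.70, 8.86 and 5.58 CPM at 7 d and 1.73, 1.86 and 1.91 CPM at 28 d. It rose 5.96-fold at 7 d (log2 FC 2.58 ± 0.27, edgeR adjusted p = 1.58e-05) and was 4.01-fold lower at 28 d (log2 FC -2.004 ± 0.25, edgeR adjusted p = 0.000144), where it did not pass against sham (log2 FC 0.57 ± 0.29, edgeR adjusted p = 0.118). Tnfrsf22, the other decoy for Tnfsf10, had a mean of 6.09 ± 0.972 CPM in sham hearts. It did not pass at 7 d (6.04 ± 0.511 CPM, 95% interval of the fold 0.790 to 1.25) and was lower at 28 d (4.06 ± 0.416 CPM, log2 FC -0.58 ± 0.17, edgeR adjusted p = 0.017). The call for Tnfrsf22 at 28 d against sham was lost without sham replicates 2 or 3 (edgeR adjusted p = 0.054 and 0.0619), and that against 7 d without 7 d replicate 2 (edgeR adjusted p = 0.0541). The calls for Tnfrsf22 at 28 d were also lost with voom (adjusted p 0.0584 against sham and 0.0854 against 7 d) and, with 1 heart left at 28 d, without the Adipoq-rich libraries (edgeR adjusted p = 0.0957 and 0.0935), and that against sham with library size alone (edgeR adjusted p = 0.105). Tnfrsf22 and Tnfrsf23 are alike in sequence: 27.4% and 18.0% of their stretches of 50 bases occur in other genes too, mostly in each other, so their values are uncertain where reads could be placed in either. Tnfrsf26 shares none.

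**Figure D2:**
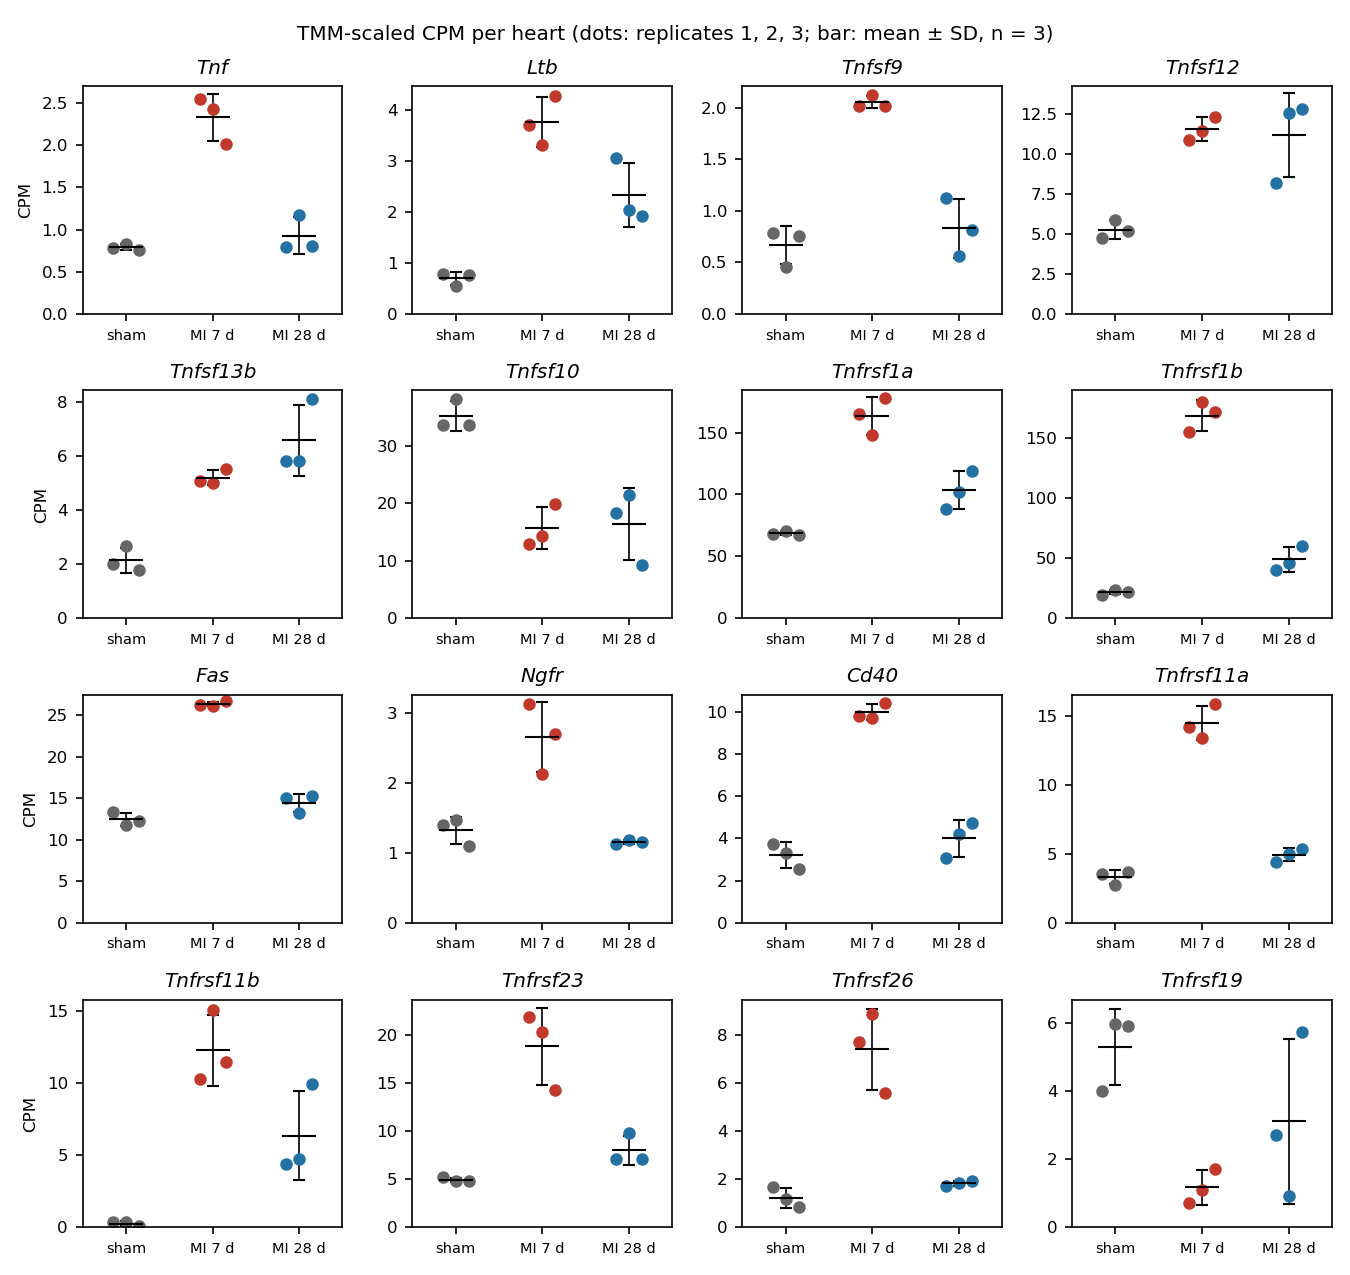
TMM-scaled CPM (y axis, starting at 0) of 16 members in each heart (dots in the order of replicates 1 to 3) by group (x axis), with the mean ± SD over 3 hearts. Tnfrsf1b and Fas at 7 d lie above all their other values, Tnfsf12 and Tnfsf13b stay above sham at 28 d, and Tnfsf10 lies below sham at both times.

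Several low-count members of lymphocyte costimulation rose at 7 d, all of them near 0 in sham hearts. Tnfsf8, Tnfrsf8, Tnfsf14 and Tnfsf15 were kept because of the MI hearts, so a rise was built into their being tested. Tnfsf8, the CD30 ligand, had 0, 0 and 0 counts in sham libraries, 24, 16 and 16 at 7 d and 5, 4 and 3 at 28 d, at least 10.3-fold higher at 7 d and at least 2.82-fold higher at 28 d against a floor of 3 counts over the sham group. Tnfrsf8, its receptor, went from 0, 3 and 2 counts to 33, 34 and 23 at 7 d, a ratio of 9.96-fold (95% counting interval 4.11 to 31.4), and back to 1, 3 and 1 at 28 d, 13.2-fold lower than at 7 d (log2 FC -3.72 ± 0.59, edgeR adjusted p = 0.000575). Both genes had their highest counts at 7 d. Tnfsf14, or LIGHT, a ligand of Ltbr and Tnfrsf14, had 4, 2 and 1 counts in sham libraries, 57, 36 and 28 at 7 d (log2 FC 3.21 ± 0.54, edgeR adjusted p = 0.000419) and 6, 14 and 7 at 28 d. Tnfsf15, the ligand of Tnfrsf25, had 1 count in all sham libraries together and 51 at 7 d, a ratio of 28.2-fold (95% counting interval 4.84 to 1136).

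Tnfrsf4 (OX40) and Tnfrsf9 (4-1BB), receptors of activated T cells, rose at both times. Both were kept because of the MI hearts, so here too a rise was built into being tested. Tnfrsf4 had 2, 2 and 0 counts in sham libraries, 29, 22 and 20 at 7 d (log2 FC 3.21 ± 0.58, edgeR adjusted p = 0.000625) and 9, 16 and 14 at 28 d (log2 FC 2.69 ± 0.61, edgeR adjusted p = 0.0046). Tnfrsf9 had 2, 0 and 2 counts in sham libraries, 30, 13 and 37 at 7 d (log2 FC 3.38 ± 0.65, edgeR adjusted p = 0.000983) and 17, 15 and 16 at 28 d (log2 FC 3.01 ± 0.68, edgeR adjusted p = 0.00459). Neither passed between 28 d and 7 d. Against sham at 28 d the calls of Tnfrsf4 and Tnfsf8 were lost in a fit of the compared groups alone, which tested 27 members. Tnfrsf18 (GITR) rose 1.93-fold at 7 d (edgeR adjusted p = 0.035) and Cd27, the receptor of Cd70, 2.36-fold (edgeR adjusted p = 0.0162). Cd27 too was kept because of the MI hearts. The call for Cd27 was lost without sham replicate 1 or 7 d replicate 2 (edgeR adjusted p = 0.0549 and 0.0563), and with DESeq2 on all libraries (adjusted p 0.068). That for Tnfrsf18 was lost without sham replicate 1, 2 or 3 or 7 d replicate 2 or 3 (edgeR adjusted p = 0.0596, 0.06, 0.126, 0.14 and 0.0552), and 27.2% of its exons overlap a gene on the other strand. The 7 T cell markers found summed to 2.97 to 4.32 CPM in sham hearts, 16.1 to 27.5 CPM at 7 d and 9.44 to 17.2 CPM at 28 d. Of them 7 of 7 were higher at 7 d and 6 of 7 at 28 d, where 39% and 29.5% of all tested genes were. The 5 NK cell markers summed to 1.31 to 1.86 CPM in sham hearts, 14.6 to 25.8 CPM at 7 d and 3.77 to 7.10 CPM at 28 d. Their part in these results was not tested.

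The receptors of Tnfsf13b and Tnfsf13 on B cells and plasma cells were rare. Of them Tnfrsf13b was kept because of the MI hearts, so a rise was built into its being tested. Tnfrsf13b (TACI) had 8, 0 and 4 counts in sham libraries and 46, 34 and 35 at 7 d, a rise of 5.23-fold (log2 FC 2.39 ± 0.60, edgeR adjusted p = 0.00507), and fell back to 8, 5 and 10 at 28 d, a fall of Tnfrsf13b that did not pass with voom (adjusted p 0.142). Tnfrsf13c (BAFF receptor) had no count in sham libraries, 5, 2 and 3 at 7 d and 5, 1 and 2 at 28 d. Tnfrsf17 (BCMA) had 5, 1 and 1 counts in sham libraries, 2, 4 and 3 at 7 d and 5, 3 and 2 at 28 d, with a ratio of 0.711-fold (95% counting interval 0.236 to 2.25) at 7 d. The ligand Tnfsf13 (APRIL) did not pass in any comparison, and its 28 d counts were 7, 11 and 45, most of them in replicate 3. The 5 B cell markers summed to 3.40 to 4.32 CPM in sham hearts, 10.3 to 64.2 CPM at 7 d and 14.1 to 94.5 CPM at 28 d, and at 28 d replicate 3 was also the highest there, at 94.5 CPM. Their part in these results was not tested.

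Of the other untested ligands, Tnfsf4, the OX40 ligand, had no count in sham libraries, 16, 6 and 2 at 7 d (at least 4.43-fold higher against the floor) and 1, 1 and 0 at 28 d. Tnfsf18, the GITR ligand, had 2, 1 and 2 counts in sham libraries, 6, 8 and 11 at 7 d and 16, 16 and 6 at 28 d, and its ratio to sham was 5.36-fold (95% counting interval 2.11 to 17.4) at 28 d. Lta, the soluble lymphotoxin, had 1 count over the sham libraries, 11 at 7 d and 4 at 28 d. Cd70 had 0, 2 and 1. With no filter on low counts, Fasl, Tnfrsf13c, Cd40lg, Tnfsf11 and Tnfsf4 passed at 7 d and Fasl and Tnfsf18 at 28 d. Library depth sets a limit here, since 3 counts correspond to 0.144 to 0.276 CPM.

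Per length of exon (CPM per kb), the order of the receptors changed between the groups. In sham hearts Tnfrsf12a led at 35.2 ± 0.674, before Tnfrsf1a at 26.6 ± 0.682, Ltbr at 20.1 ± 1.17, Fas at 6.06 ± 0.388 and Tnfrsf1b at 5.75 ± 0.529 CPM per kb. The last pair were within their spread of each other. At 7 d Tnfrsf1a was first at 63.1 ± 5.78, followed by Tnfrsf1b at 44.1 ± 3.34, Tnfrsf12a at 40.4 ± 7.55 and Ltbr at 37.7 ± 3.80 CPM per kb, where each of the last 3 was within the spread of the next. At 28 d Tnfrsf12a led again at 56.3 ± 5.30, before Tnfrsf1a at 39.9 ± 5.91, Ltbr at 23.4 ± 0.451 and Tnfrsf1b at 12.8 ± 2.67 CPM per kb. Among ligands Tnfsf10 led in sham hearts at 6.67 ± 0.499 CPM per kb, with Tnfsf12 at 3.47 ± 0.391. Both MI groups had the reverse order, Tnfsf12 at 7.61 ± 0.496 and Tnfsf10 at 2.99 ± 0.689 CPM per kb at 7 d, and 7.37 ± 1.72 and 3.10 ± 1.19 CPM per kb at 28 d. Tnf itself was at 0.483 ± 0.0207 CPM per kb in sham hearts and 1.42 ± 0.169 at 7 d.

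**Figure D3:**
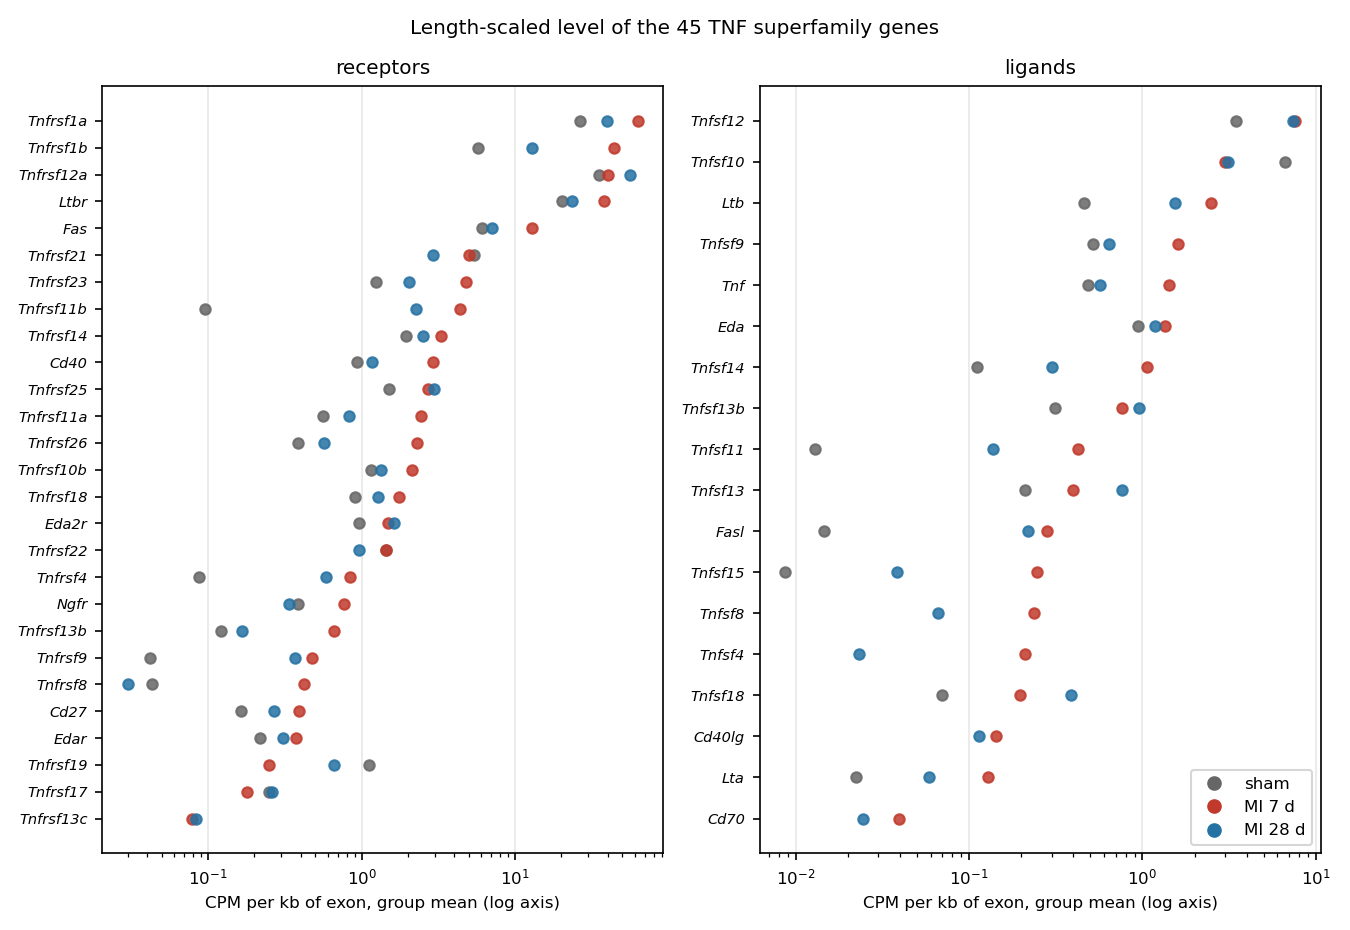
Group mean level in CPM per kb of exon (x axis, log scale) of the 27 receptors and 18 ligands (y axis) in sham, 7 d and 28 d hearts, with genes ordered by their level at 7 d and no sham dot for the 5 genes with 0 counts there. Receptors reach 63.1 CPM per kb (Tnfrsf1a at 7 d) and ligands 7.61 CPM per kb (Tnfsf12 at 7 d).

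Ratios of counts within each heart compare partners without any scaling between libraries. The ratio of Tnfrsf1b to Tnfrsf1a was 0.291, 0.336 and 0.329 in sham hearts, 0.937, 1.22 and 0.966 at 7 d and 0.456, 0.454 and 0.506 at 28 d. The 3 groups did not overlap, and the share of Tnfrsf1b in the pair was highest at 7 d. For Tnfrsf23 to Tnfrsf22 the sham hearts gave 0.713 to 1.05, the 7 d hearts 2.48 to 3.82 and the 28 d hearts 1.62 to 2.32. For Tnfrsf26 to Tnfrsf22 the sham hearts gave 0.125 to 0.333, the 7 d hearts 0.967 to 1.34 and the 28 d hearts 0.394 to 0.532. Both ratios were thus lowest in sham and highest at 7 d, with no overlap. The ligand Tnfsf10 to its receptor Tnfrsf10b lay between 4.96 and 6.38 in sham hearts, between 1.04 and 2.13 at 7 d and between 1.10 and 3.00 at 28 d. Tnfsf12 to Tnfrsf12a lay between 0.0679 and 0.0882 in sham hearts, between 0.114 and 0.171 at 7 d and between 0.0690 and 0.131 at 28 d, where it overlapped sham. Over 15 comparisons of 5 ratios, a two-sided exact permutation test gave p = 0.1 (0.125 adjusted) wherever the groups did not overlap, the smallest p that 3 against 3 allows. For Tnfsf12 to Tnfrsf12a at 28 d the exact p was 0.3 against sham and 0.2 against 7 d, and for Tnfsf10 to Tnfrsf10b between 28 d and 7 d it was 0.3. No ratio could thus pass 0.05 in this design.

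**Figure D4:**
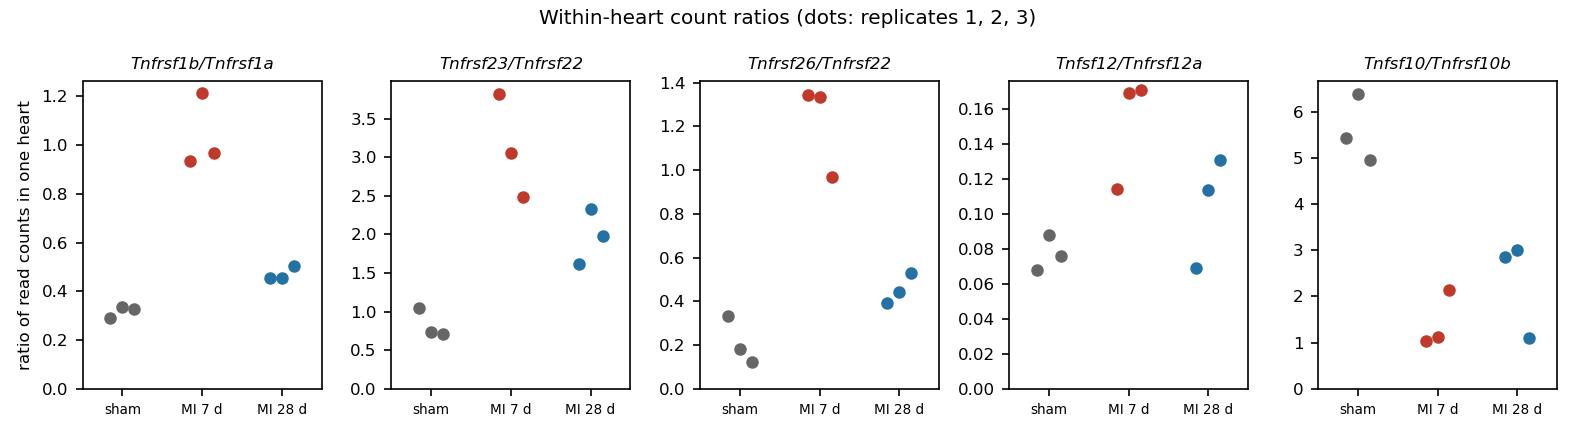
Ratio of the read counts of 5 pairs of members in each heart (y axis, starting at 0) by group (x axis), 1 dot for each of 3 hearts. Tnfrsf1b to Tnfrsf1a, Tnfrsf23 to Tnfrsf22 and Tnfrsf26 to Tnfrsf22 are highest at 7 d, and Tnfsf10 to Tnfrsf10b is highest in sham hearts.

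The genes that carry signals from these receptors were followed in 4 lists of 59 genes in all, each of which could be tested. At 7 d 28 rose, 14 fell and 17 did not pass, with a median log2 FC of 0.21, and the split was 42 higher and 9 lower with library size alone. At 28 d 28 rose and 13 fell (34 and 5 with library size alone), and between 28 d and 7 d 16 were higher and 22 lower. Of all tested genes 39% rose and 35.4% fell at 7 d, 29.5% rose and 25.6% fell at 28 d, and 29.1% were higher and 26.1% lower at 28 d than at 7 d.

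Of 30 adaptors and kinases 12 rose and 9 fell at 7 d, and 10 rose and 7 fell at 28 d. These shares are near those of all tested genes (39% and 35.4% at 7 d, 29.5% and 25.6% at 28 d). Traf1, an adaptor of Tnfrsf1b and other TRAF-binding receptors that NF-kB induces, rose from 1.65 ± 0.248 to 11.8 ± 2.06 CPM at 7 d (log2 FC 2.83 ± 0.21, edgeR adjusted p = 1.51e-06), a 7.13-fold change, and was at 6.79 ± 0.944 CPM at 28 d. Tradd, the adaptor of Tnfrsf1a, rose 3.14-fold, Map3k14, the kinase of the non-canonical NF-kB pathway, 3.00-fold, and Ripk1, a kinase of cell survival and necroptosis, 2.77-fold at 7 d. Map3k5, a stress kinase, fell 2.53-fold and Faf1, a Fas-associated factor, 2.33-fold. At 28 d the largest rises were those of Traf1 (4.13-fold), Map3k14 (2.23-fold), Traf3 (2.00-fold) and Tradd (1.89-fold), and the largest falls those of Tab1 (1.90-fold) and Map3k5 (1.61-fold). Between 28 d and 7 d Traf4 (2.20-fold), the apoptosis protease gene Casp8 (2.16-fold), Ripk1 (1.82-fold) and Traf1 (1.73-fold) fell, and Traf3 (1.84-fold) and Map3k5 (1.57-fold) rose.

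Of 11 NF-kB subunits and inhibitors 8 rose and 2 fell at 7 d, and 7 rose and 1 fell at 28 d, where 39% and 35.4% of all tested genes did at 7 d and 29.5% and 25.6% at 28 d. The largest rises at 7 d were of inhibitor-type proteins. Nfkbie, which holds NF-kB in the cytoplasm, rose 4.65-fold (log2 FC 2.22 ± 0.19, edgeR adjusted p = 4.42e-06), Nfkbid 4.12-fold, Nfkbiz 2.98-fold and Bcl3 2.60-fold, the last 3 being nuclear proteins of this family that can also act as coactivators. Rel fell 2.33-fold and Nfkbib 1.30-fold. At 28 d Nfkbie (2.72-fold), Nfkbia (2.27-fold), Nfkb2 (2.22-fold) and Relb (1.58-fold) led, and Rel was 2.24-fold lower than sham. From 7 d to 28 d Nfkbid (2.43-fold), Nfkbiz (1.98-fold), Bcl3 (1.73-fold) and Nfkbie (1.71-fold) fell, while Nfkbia (1.85-fold) and Nfkb2 (1.36-fold) rose.

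Of 10 feedback regulators 4 rose and 3 fell at 7 d, and 8 rose and 2 fell at 28 d. The 7 d shares are near those of all tested genes, 39% and 35.4%, and the background at 28 d is 29.5% and 25.6%. Tnip2 rose 1.85-fold, Tnfaip3, the ubiquitin-editing enzyme A20, 1.78-fold, the deubiquitinase gene Otulin 1.62-fold and the ubiquitin ligase gene Itch 1.19-fold at 7 d, while Rnf11 fell 1.51-fold and Spata2 1.41-fold. At 28 d Otulin (1.79-fold), Tnip1 (1.69-fold), Tnip2 (1.55-fold) and Cyld (1.40-fold) led the rises, and Spata2 (1.33-fold) and Rnf11 (1.17-fold) fell. From 7 d to 28 d Tnip1, Cyld, Otud7b, Rnf11 and Tax1bp1 rose by 1.24-fold to 1.46-fold and Tnfaip3 fell 1.32-fold. The list for the release of ligands and receptors from the membrane has 8 genes and includes an inhibitor, Timp3. Of the 8 genes 4 rose, Timp3 among them, and none fell at 7 d. At 28 d 3 rose, again with Timp3, and 3 fell, beside the same background. Timp3, the inhibitor of Adam17, rose from 217 ± 7.82 to 833 ± 143 CPM at 7 d (log2 FC 1.94 ± 0.13, edgeR adjusted p = 1.02e-06) and stayed at 816 ± 53.5 CPM at 28 d. Adam17, which cuts Tnf and its receptors from the surface, rose 1.51-fold at 7 d and was 1.27-fold lower than sham at 28 d (log2 FC -0.35 ± 0.085, edgeR adjusted p = 0.00703). Sppl2b, an intramembrane protease that acts on Tnf, was 1.38-fold lower than sham at 28 d. Adam10 rose 1.87-fold and Rhbdf1, a cofactor of Adam17, 2.16-fold at 7 d. From 7 d to 28 d Adam17 fell 1.92-fold, Adam10 1.56-fold, Furin 1.42-fold and Sppl2b 1.26-fold.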

How the data were processed

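Bulk RNA of 9 mouse hearts was sequenced, 3 per group, with groups and replicate numbers taken from the sample titles. The authors deposited whole-number read counts per gene symbol, not normalized. The libraries were built from TRIzol-extracted total RNA (KAPA RNA HyperPrep), per the labels' protocols, and the tools named are Trim Galore, STAR and featureCounts with the mm10 build, per the submitters' processing notes. Annotation, strandedness and how multi-mapping reads were counted: not given in the sources used here. Reads of overlapping or near-identical genes can therefore be split or shared.

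From these counts genes were kept by filterByExpr on the groups (at least 10 counts, 15 in total), scaled by TMM and fitted with 1 mean per group over all 9 libraries in edgeR 4.0.16 under R 4.3.3. Quasi-likelihood tests were two-sided, and p-values were adjusted by Benjamini-Hochberg over 14347 genes with a threshold of 0.05. The SE is the size of the log2 FC divided by the root of the F statistic, and 95% intervals of a fold are 1.96 SE to either side. Ratios of counts have exact intervals, which cover counting error only, as does the floor of 3 counts used for a group at 0. Exon lengths were from GENCODE M21, gene coordinates and promoters from RefSeq (GRCm38.p6). All 45 members had an exon length and coordinates, and 35 a promoter.

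The members, the gene lists and the rules were chosen with earlier results of these data known. Values of every heart are given for 16 members, which had a mean of at least 1 CPM and passed with at least a 2-fold change in some comparison, or are Tnf or its receptors. From the pathway lists up to 4 genes in the main direction and 2 in the other were named by size, at a mean of at least 1 CPM. The series text gives 3 mice per group, and the test was tried on simulated counts first. Alternatives were DESeq2 1.42.0, limma 3.58.1 voom, other scalings and filters, a fit of the compared groups alone, a replicate block, a 2-fold minimum, sham summed to 1, and leaving out each library or the 3 Adipoq-rich ones.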

Additional observations from a re-analysis of the deposited data

Results flagged for a closer look

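A pair of members lay on opposite sides of sham at 7 d and 28 d, and their difference between 28 d and 7 d passed the edgeR test. For Ngfr the log2 fold change between 28 d and 7 d was -1.19, with 7 d above sham and 28 d, within the sham range, below the sham mean. For Tnfrsf8 it was -3.72, from 90 counts over the 7 d libraries to 5 over the 28 d libraries, against 5 over the sham libraries. Neither differed detectably from sham at 28 d (edgeR adjusted p = 0.588 for Ngfr and 0.67 for Tnfrsf8). For Ngfr the sign at 28 d against sham changed with library size alone (log2 FC 0.056). The comparisons with sham share the sham hearts, and the difference tested is that between 28 d and 7 d.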

How the results depend on the processing

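For the 16 members with values of every heart, 3 comparisons and 19 alternatives gave 902 values, of which 858 kept their direction and side of the threshold, 22 lost the call, 11 gained it and 11 changed sign without being called in the full fit. Members called higher at 7 d were 17 with the stricter filter (mean of 2 CPM, with 3 libraries at 1 CPM), which tests fewer genes. At 28 d against sham 22 were higher with library size alone, 8 with sham summed to 1 and 8 with a 2-fold minimum, and 1 was lower with either of the last 2. Between 28 d and 7 d 2 were higher with DESeq2 and 2 without the Adipoq-rich libraries, which leaves 1 heart at 28 d (1 to 2 when each library was left out, 2 without 7 d replicate 3, 28 d replicate 2 or 28 d replicate 3), 0 with a 2-fold minimum, and 13 were lower with the stricter filter and 13 with a 2-fold minimum. Of the pathway genes, a 2-fold minimum left 13 higher and 3 lower at 7 d, 6 and 1 at 28 d, and 0 and 4 between the times. Library size alone gave 9 lower at 7 d and 5 lower at 28 d, and sham summed to 1 gave 14 higher and 5 lower at 28 d. The cause was not tested where a setting is not named as testing fewer genes.

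Signs changed for Ngfr at 28 d against sham with library size alone (0.056) and Tnfsf9 at 28 d against sham without the Adipoq-rich libraries (-0.28). Between 28 d and 7 d they changed for Tnfsf10 with library size alone (-0.051), with voom (-0.024) and when 7 d replicates 1 or 2 or 28 d replicates 1 or 2 were left out (range over all libraries left out -0.19 to 0.34), and for Tnfsf12 without the Adipoq-rich libraries (0.17) and without 7 d replicate 3 or 28 d replicate 1 (range -0.15 to 0.13).

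Deviations of hearts with the same replicate number correlated at -0.091 to 0.30, so the numbers were not taken as pairs. With the replicate number as a block 28 members were higher and 2 lower at 7 d, 15 and 3 at 28 d, and 2 and 21 between 28 d and 7 d, with Tnfsf13 gained at 28 d against sham (adjusted p 0.0391 by edgeR) and Tnfrsf19 between 28 d and 7 d. Depth limits the 9 untested members and the low-count ones, where 3 counts are 0.144 to 0.276 CPM.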
